A study of Mus musculus with 12 samples.

Results

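The cytosolic ribosomal protein genes were followed along the posterior neural tube of CD1 mouse embryos, an outbred strain, at embryonic day 9.5. Members were the genes whose array annotation symbol begins with Rpl or Rps followed by a digit or the letter p, leaving out the Rps6k kinases, and only probe sets annotated with exactly 1 gene were used. The rule found 105 probe sets for 50 gene symbols, out of 18193 genes named by 1 symbol on the array. Another 31 such symbols, not counting those with the pseudogene mark -ps, stood only on probe sets with several genes and were not analysed. Each gene was represented by its probe set with the highest mean signal. A gene was tested when that probe set stood above the array's median signal on at least 2 of 12 arrays, which 47 members did, among 12089 genes in all.

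Embryos were digested for 1 min in pancreatin at 2 mg per ml, after which needles were used to free the tube and cut it into 6 pieces, called part 1 to part 6. The design text names 2 embryos as the source, and each part has 2 biological replicates on 1 array each, so all groups share strain, stage and digestion and there is no untreated group. The labels do not say which part number is the caudal end. Values are therefore given by part number.

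Ribosomal proteins assemble with ribosomal RNA in the nucleolus into a large subunit, which joins amino acids, and a small subunit, which reads the messenger RNA. The acidic P proteins form the stalk of the large subunit that recruits the GTPases of translation. Their genes are expressed in all cells, their messenger RNAs typically begin with a run of pyrimidines through which mTOR signalling controls their translation, and mutations in single members have given tissue-restricted phenotypes in mice, among them tail and axial skeleton defects.

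The start regions of the members show features that the symbol rule did not use, and those of 9 genes that recur in the results or have known developmental phenotypes are printed, 6 with the motif searched first and 3 without it. Sequences are from RefSeq on GRCm38.p6, where 43 of the 50 members had an entry. Each line runs from 30 bases before the annotated transcription start to 25 bases from the start on, 5′ to 3′ on the gene's strand, and capitals mark CTTCCG or its reverse complement CGGAAG, the core of the site recognised by ETS-family factors.
Rpl37 (chr15:5116583-5116637, plus strand): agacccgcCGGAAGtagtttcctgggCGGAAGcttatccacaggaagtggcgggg
Rpl37a (chr1:72711230-72711284, plus strand): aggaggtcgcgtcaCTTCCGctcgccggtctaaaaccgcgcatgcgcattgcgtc
Rpl38 (chr11:114668550-114668604, plus strand): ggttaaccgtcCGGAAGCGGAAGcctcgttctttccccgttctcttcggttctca
Rps18 (chr17:33955641-33955695, minus strand): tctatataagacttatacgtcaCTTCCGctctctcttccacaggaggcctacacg
Rps7 (chr12:28635929-28635983, minus strand): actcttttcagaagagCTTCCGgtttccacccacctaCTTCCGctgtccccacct
Rpl11 (chr4:136053369-136053423, minus strand): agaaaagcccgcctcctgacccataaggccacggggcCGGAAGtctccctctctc
Rpl14 (chr9:120571487-120571541, plus strand): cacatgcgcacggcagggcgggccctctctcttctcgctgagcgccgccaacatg
Rpl7l1 (chr17:46782632-46782686, minus strand): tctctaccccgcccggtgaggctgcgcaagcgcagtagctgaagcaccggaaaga
Rpl22 (1 of its 2 listed starts, chr4:152325696-152325750, plus strand): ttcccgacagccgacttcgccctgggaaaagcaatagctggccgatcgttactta

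Within the printed stretch the motif was present in 13 of 43 members, so most members resemble the last 3 lines in this respect. Over the whole 300-base window of the table, from 250 bases before the start to 50 after it, CTTCCG on either strand was present in 30 of 43 members (69.8%), in 18.8% of all 27025 genes of the table and in 34.6% of the 9753 tested genes found there. Rps18 held 4 copies in that window, Rpl37 and Rps7 held 3 each, Rpl37a and Rpl38 held 2 each and Rpl11 held 1, while Rpl14, Rpl7l1 and Rpl22 held 0. A run of at least 8 C or T was sought between 20 bases before and 30 after the start. It was present in 23 of 43 members (53.5%), in 21.5% of all genes and in 21.8% of tested genes. The longest runs of the printed genes were 17 bases in Rpl11, 14 in Rpl14 and 11 in Rps18. The other motifs were searched on both strands. CACGTG, the E-box bound by Myc, was present in 4 members (9.30%, against 8.09% of all genes and 11.9% of tested genes). AANATGG, the core of the YY1 site, was present in 14 (32.6%, against 18.2% and 17.1%), and TATAAA was present in 6 (14.0%, against 15.7% and 8.705%). These are matches of letters in a window, and no binding was measured.

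The labelled tissue was checked against marker lists. All 8 listed neural progenitor genes passed the filter, with a summed signal of 2847 to 6474 over the arrays, and the 7 caudal progenitor genes on the array summed to 6292 and 6946 in part 1 and to 1308 and 1207 in part 6. Presomitic mesoderm genes were also present (7 of 7 passed), summing to 5562 and 4017 in part 1 and to 244 and 257 in part 6. Surface ectoderm genes (6 of 7 passed) summed to 1040 and 406 in part 1 and to 126 and 112 in part 6. Gut endoderm genes (3 of 4 passed, Sox17 did not) ran the other way: part 1 held sums of 170.1 and 82.9, part 6 sums of 808 and 872. Notochord genes (4 listed, both of the 2 on the array passed) summed to 37.2 to 564 and somite genes (3 of 6 passed) to 57.8 to 460.4, each highest in part 2 replicate 1. Neuron genes (4 of 6 passed) summed to 135 to 237. Globins and other blood genes (4 of the 5 on the array passed, Hba-a1 did not) varied between arrays of the same part, from 45.4 in part 1 replicate 1 to 9915 in part 1 replicate 2. Of 5 endothelial genes, Pecam1, Cdh5, Tek and Emcn did not pass and the sum was at most 46.3. Whether the signal of a list came from the cell type it is named after was not tested. The part such cells play in the ribosomal protein values was not tested, and in such bulk samples fewer cells of a type and less RNA per cell cannot be told apart.

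Along the 6 parts the members tested changed little: none of the 47 was called by the slope per part number, by the F test among parts, by part 6 against part 1 or by any of the 5 steps between neighbouring parts. The slopes lay between -0.069 log2 per part (Rpl19) and 0.091 (Rpl12), against a 5th to 95th percentile of -0.21 to 0.16 over all 12089 genes. The signal of the highest array was under 2 times that of the lowest in 41 of 47 members, with a median ratio of 1.56. Most slopes lay below 0, 39 of 47 against 54.0% of all genes, with a median of -0.036 against -0.007 for all genes. Among 360 other genes with a mean signal of at least 2000, a cut chosen after the data were seen because 32 members lie above it, 64.2% of slopes lay below 0 and the median was -0.014. Under quantile normalization between arrays the member median slope was -0.0107, with 35 of 47 below 0, and with the arrays centred on their hybridization controls it was -0.0325, with 39 of 47 below 0.

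The tests were limma fits on log2(signal + 4.43) with Benjamini-Hochberg adjustment over all genes. In the slope fit, 12.7% of all genes were called and 0 of 47 members. Of the other genes with a mean signal of at least 2000, called the other bright genes, 4.17% were called. As 32 of 47 members lie above the same cut, the other bright genes are the closer comparison for these. An unadjusted p under 0.05 was reached by 2 members (Rpl12 and Rps3a1) and by 26.6% of all genes. The F test called 4.91% of all genes and no member, and no member had an unadjusted p under 0.05. Part 6 against part 1 called 9.09% of all genes, 1.94% of the other bright genes and no member. Again 0 members had an unadjusted p under 0.05. The steps called 0.248% of all genes from part 1 to part 2 and 0.19% from part 2 to part 3. Each of the 3 later steps called 0.00827%. At each step 0% of the other bright genes and 0 members were called, and 0 members had an unadjusted p under 0.05. The 95% intervals of the slope together ran from -0.20 to 0.21, and 43 of 47 members had an interval for part 6 minus part 1 that stayed within 1 log2 unit on either side of 0, as did 61.0% of all genes.

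**Figure D1:**
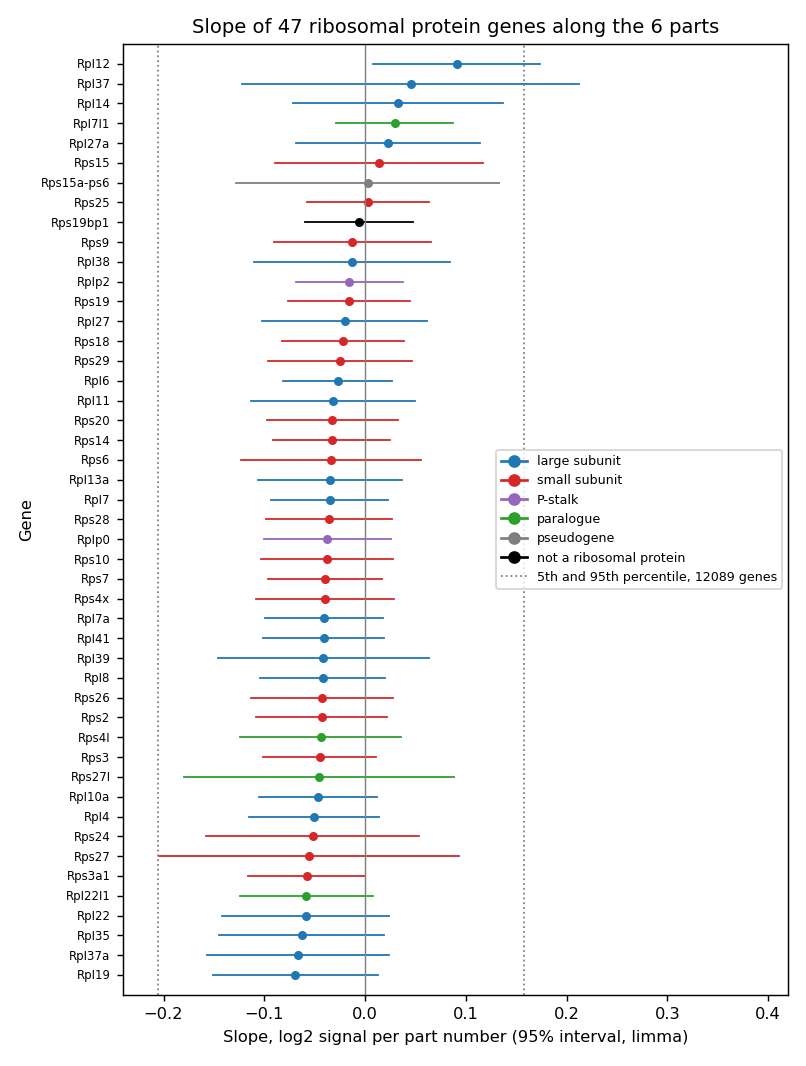
Change in log2 signal for each step in part number (x axis) with its 95% limma interval for the 47 tested members (y axis, ordered by slope), coloured by class. Dotted lines mark the 5th and 95th percentile of the slopes of 12089 genes; the member slopes run from -0.069 for Rpl19 to 0.091 for Rpl12, and 39 of 47 lie below 0.

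The member values varied between single arrays and between parts. The member median, each member taken relative to its own mean over the 12 arrays, was highest in part 1 replicate 2 (0.32 log2) and stood at -0.13 in part 1 replicate 1. It was -0.14 in part 3 replicate 2, -0.12 and -0.14 in the replicates of part 5 and -0.11 in part 6 replicate 1, and between 0.01 and 0.09 on the other 6 arrays. Part 1 replicate 2 was the highest array for 33 of 47 members, for 48.9% of the 360 other bright genes and for 18.9% of all genes. When each member was first averaged over the arrays of a part, the median over members lay between -0.13 (part 5) and 0.10 (part 1). From part 3 to part 4, 43 of 47 members rose (median 0.09 log2), against 52.4% of all genes, and 10.8% of the other bright genes fell. From part 4 to part 5, 41 of 47 fell (median -0.195), against 49.6% of all genes and 87.5% of the other bright genes. No member was called at either step.

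The hybridization controls moved with the pattern of the member medians on most arrays, and their part in it was not tested. The mean of 4 Cre probe sets, hybridization controls added to each sample, deviated by 0.26 log2 in part 1 replicate 2, by -0.13 in part 1 replicate 1, by -0.14 in part 3 replicate 2 and by -0.17 in part 5 replicate 1. In part 6 replicate 2 they parted, with the Cre controls at 0.16 and the member median at 0.01. In part 2 the Cre controls were at -0.02 and -0.05 and the member medians at 0.04 and 0.02. The highest signal on an array was 10789 in part 1 replicate 2 (member median 0.32) and 7040 in part 3 replicate 2 (-0.14). This maximum was 8988 in part 1 replicate 1 (-0.13) and 8315 in part 2 replicate 2 (0.02). Its part in the pattern was not tested. The part of the signal ratios and blood sums below was not tested either. The ratio of 3′ to 5′ signal of Actb, a measure of how short the labelled RNA was, ranged from 5.24 in part 3 replicate 2 (member median -0.14) to 16.05 in part 1 replicate 2 (0.32). This ratio was 14.7 in part 3 replicate 1 (member median 0.08) and 12.5 in part 5 replicate 2 (-0.14). That of Gapdh was highest, 9.39, in part 1 replicate 1, where the member median was -0.13. The blood genes summed to 9915 in part 1 replicate 2 and to 45.4 in part 1 replicate 1. Their sums were 5528 in part 3 replicate 2 and 6844 in part 5 replicate 2, both with a member median of -0.14. The members' share of the summed signal was 3.60% in part 1 replicate 1, 4.78% in part 1 replicate 2 and from 3.60% to 4.13% on the other arrays.

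The sign of the end-to-end difference rested on part 1 replicate 2. With all arrays, part 6 minus part 1 had a median of -0.16 over members and lay below 0 in 39 of 47. Without part 1 replicate 2 the median was 0.06 and 16 of 47 lay below 0, while the median slope was -0.01 with 30 of 47 below 0. Without part 1 replicate 1 the median difference was -0.39 and 42 of 47 lay below 0, with differences of -0.745 in Rpl37a, -0.799 in Rpl35 and -0.575 in Rpl22l1. In that fit part 1 is the array of replicate 2 alone, whose spread is assumed to be like that of the other parts. Arrays of the 2 ends did not overlap in 10 members, 9 of them lower in part 6, against 46.9% of all genes.

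**Figure D2:**
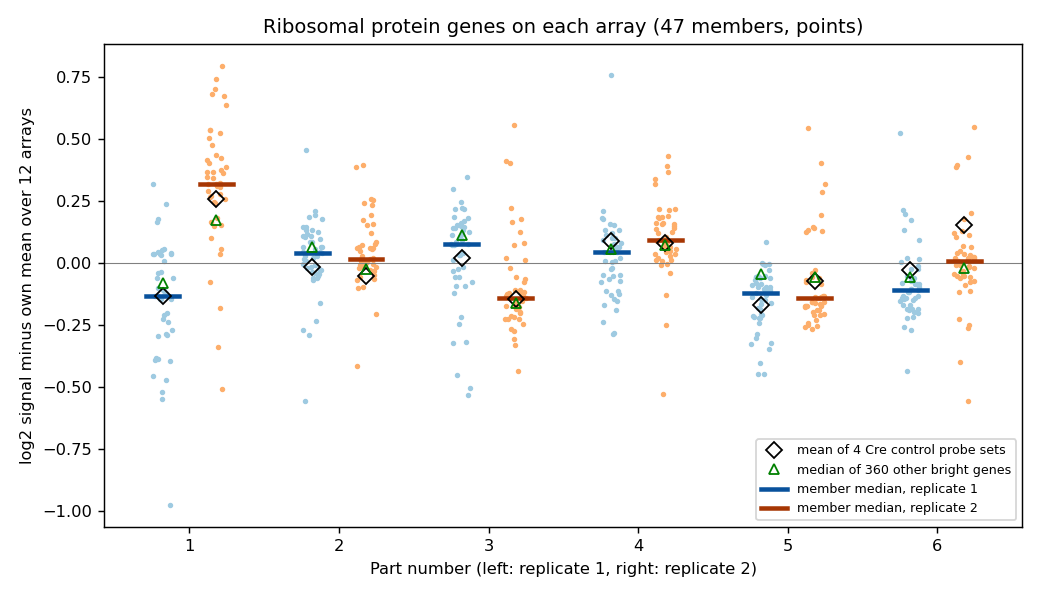
Log2 signal of the 47 tested members relative to each gene's mean over 12 arrays (y axis, points) by part number (x axis), with replicate 1 on the left and replicate 2 on the right of each number; bars are member medians, diamonds the mean of 4 Cre hybridization controls and triangles the median of 360 other bright genes. Part 1 replicate 2 has the highest member median (0.32) and part 3 replicate 2 is at -0.14, with the Cre controls at 0.26 and -0.14 on these arrays.

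Of the 20 large subunit members all were tested, and 16 had a slope below 0 with a median of -0.038. Rpl19 had the most negative slope of all members, -0.069 ± 0.038 (SE, limma adjusted p = 0.272). Its signals in replicates 1 and 2 were 3491 and 5611 in part 1, 4665 and 4247 in part 2, 5125 and 3259.8 in part 3, 4176 and 4071 in part 4, 3811 and 3415 in part 5, and 3718 and 3452 in part 6. The 2 arrays of part 1 lay further apart than any other pair, and 1 array of part 6 fell between them, so the ends overlapped.

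Rpl37a followed with a slope of -0.066 ± 0.042 (adjusted p = 0.345, limma). Its signal was 2433 and 4777 in part 1, 3111 and 3402 in part 2, 2928 and 2847 in part 3, 2678 and 3387 in part 4, 2414 and 2642 in part 5, and 2685 and 3023 in part 6. The array of part 1 replicate 2 alone stood above 3402. Rpl35 had the same shape, with 3988 and 7102 in part 1, signals between 3767 and 4693 on the other 10 arrays and a slope of -0.063. Rpl22, an RNA-binding protein that is dispensable for the ribosome's core function, had a slope of -0.059, with 4464 and 7573 in part 1 and 4548 and 5204 in part 6.

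Rpl12, a protein at the base of the stalk, had the largest positive slope, 0.091 ± 0.038, and the smallest adjusted p of the members (limma, 0.147). Its signal was 388 and 261 in part 1, 333 and 389 in part 2, 272 and 395 in part 3, 360.2 and 433 in part 4, 357 and 456 in part 5, and 409 and 489 in part 6. Both arrays of part 6 lay above both of part 1, which made it the only member of the 10 with separate ends that was higher in part 6, and its difference of 0.48 log2 (95% interval -0.10 to 1.07) was not called. The next largest positive slopes were 0.045 in Rpl37, 0.033 in Rpl14, 0.029 in the paralogue Rpl7l1 and 0.023 in Rpl27a, none of them called.

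Rpl38, in which mutations shorten the tail and alter vertebral identity in mice, had signals of 3498 and 7548 in part 1, 4841 and 4863 in part 2, 4795 and 4466 in part 3, 4777 and 5522 in part 4, 3972 and 4597 in part 5, and 4909 and 5301 in part 6. The largest gap was between the 2 arrays of part 1, and the slope was -0.013 with a 95% interval of -0.11 to 0.09. Rpl27a, in which mutations give the sooty foot ataxia phenotype, ranged from 579.5 to 981 with a median of 785, and its part 1 arrays (579.5 and 977) spanned nearly that whole range. Rpl11, which binds and inhibits the p53 regulator Mdm2, ranged from 1677 to 2610.1, both in part 1, with a slope of -0.032 ± 0.038. Rpl13a, with a mean signal of 7249.9, ranged from 6110.4 to 9654, again both in part 1.

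Rpl39 was dim, at 45.8 to 83 with a median of 64.3, and its ends overlapped. The remaining large subunit members, Rpl4, Rpl6, Rpl7, Rpl7a, Rpl8, Rpl10a, Rpl27 and Rpl41, had slopes between -0.051 (Rpl4) and -0.020 (Rpl27). Rpl4 was lower in part 6 (5109 and 4447) than in part 1 (5465 and 6325) on both arrays, and so was Rpl10a, with 4444 and 4675 against 4745 and 6312, but neither difference was called.

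Of the 20 small subunit members 19 were tested, 17 had a slope below 0 and the median was -0.036. Rps3a1 had the most negative slope of the group, -0.058 ± 0.027 (limma adjusted p = 0.187). Its signal was 5884 and 7092 in part 1, 6325 and 5602 in part 2, 6211 and 5066 in part 3, 6275 and 5688 in part 4, 5617 and 4778 in part 5, and 5036 and 5427 in part 6. The 2 arrays of part 6 lay below the 2 of part 1, while parts 2 to 4 overlapped both ends.

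Rps3, which also acts in DNA repair, showed the same separation of ends with 5519 and 6445 in part 1 and 4824 and 4995 in part 6, a slope of -0.045 and an adjusted p of 0.303 in the limma fit. Rps2 had separate ends as well, 6495 and 6975 against 5538 and 6060.5. Rps6, the substrate of the S6 kinases, was measured by a dimmer probe set at 314 and 376 in part 1, 279 and 207 in part 2, 316 and 228 in part 3, 309.5 and 253 in part 4, 294 and 246 in part 5, and 313 and 232 in part 6. Replicate 2 was higher than replicate 1 in part 1 only and lower in the other 5 parts, and the slope was -0.034.

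The small subunit genes with known mouse phenotypes were among the members not called along the parts. Rps7, whose mutants have skeletal and eye defects, ranged from 5136 to 7126 with a median of 5843 and a slope of -0.039. Rps19 and Rps20, in which mutations darken the skin, had slopes of -0.016 and -0.032, with signals of 1659.9 to 2333 and 5759 to 9087. In all 3 the highest array was part 1 replicate 2.

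Rps29, Rps18, Rps20 and Rps4x had, with Rpl13a, the highest mean signals of the members (6809 to 7344), which depends on the probes as well as on the RNA. Their slopes were -0.025, -0.022, -0.032 and -0.040. Rps27 was dim, at 15.6 to 45.5 around the array medians of 16.7 to 19.1, and its slope of -0.056 had the lowest interval bound of the members, -0.20. Rps16 did not pass the filter: its probe set stood at 0.281 to 3.66 on the 12 arrays. The other small subunit members (Rps9, Rps10, Rps14, Rps15, Rps24, Rps25, Rps26 and Rps28) had slopes between -0.052 (Rps24) and 0.014 (Rps15).

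Both stalk proteins were flat. Rplp0 was 4779 and 5926 in part 1, 6035 and 5307 in part 2, 6139 and 4744 in part 3, 5875 and 5612 in part 4, 5042 and 4500.3 in part 5, and 4703 and 5025 in part 6, with a slope of -0.037 ± 0.029. Rplp2 had the smallest ratio of highest to lowest array of all 47 members, 1.23, with signals of 3852 to 4749, and it was one of the few members not raised in part 1 replicate 2 (4402 and 4072 in part 1).

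Of the 6 paralogues in the rule, Rpl3l and Rpl39l, which are known mainly from muscle and testis, did not pass the filter, with signals of at most 11.03 and 11.1. Rpl22l1, which Rpl22 represses, was 2291 and 3247 in part 1, 2140.1 and 2327 in part 2, 2116 and 2075 in part 3, 2266 and 2254 in part 4, 1919 and 2029.5 in part 5, and 2215 and 2141 in part 6. Its slope was -0.058 ± 0.031, beside -0.059 ± 0.039 for Rpl22. Part 6 lay below part 1 on both arrays of Rpl22l1, and the arrays of Rpl22 overlapped.

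Rpl7l1 had a slope of 0.029 beside -0.035 for Rpl7, Rps4l -0.044 beside -0.040 for Rps4x, and Rps27l, a p53 target, -0.046 beside -0.056 for Rps27. No member of these pairs was called, and the differences within pairs were not tested. The pseudogene Rps15a-ps6 stood at 10.99 to 28.9, around the array medians. Rps19bp1, a binding partner of RPS19 that the symbol rule also catches although it is no ribosomal protein, ranged from 226 to 282 with a slope of -0.006.

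The 2 replicates differed in few members. With part as a factor, Rpl37 was the only one of 47 called higher in replicate 2, none was called lower, and 1.63% of all genes were called in either direction. If the replicate number marks the embryo, 1 embryo is set against 1 other. The SE and p-values of all comparisons between replicates then measure the spread among pieces, not among embryos. Rpl37 encodes a zinc-finger protein of the large subunit. Its signal was 127 and 408 in part 1, 210.2 and 334 in part 2, 174 and 297 in part 3, 235 and 344 in part 4, 185 and 280.5 in part 5, and 239 and 373 in part 6 for replicates 1 and 2. Replicate 2 was higher in all 6 parts and no array overlapped between replicates, a difference of 0.80 ± 0.152 log2 (SE, limma adjusted p = 0.0424). Its probe set carries the suffix for probes that match other transcripts, and the call was lost in 13 of 25 alternatives, among them leaving out any 1 array of parts 2 to 6, with adjusted p between 0.00326 and 0.111. In this comparison leaving out either array of a part gives the same fit, so these alternatives are not all separate.

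Rpl14 was the other member whose replicates did not overlap, 2 of 47 against 2.99% of all genes. Its signal was 653 to 891 in replicate 1 and 987 to 1241 in replicate 2, higher in replicate 2 in all 6 parts, with a difference of 0.49 ± 0.114 (limma adjusted p = 0.0745). In the replicate block alternative, which for this comparison drops the part as covariate, Rpl14 was called too (adjusted p = 0.0253), so that 2 members were called. Rps27l (0.58 log2) and Rps15 (0.39) were also higher in replicate 2 in all 6 parts, and their arrays overlapped between replicates. Rps24 (0.35) and Rpl11 (0.31) were higher in 5 parts. None of these 4 was called. The 6 members at an unadjusted p under 0.05, where 19.8% of all genes stood, were Rpl37, Rpl14, Rps27l, Rps15, Rpl11 and Rps6, the last lower in replicate 2 (-0.27), while Rps24 had an unadjusted p of 0.0652 (limma).

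**Figure D3:**
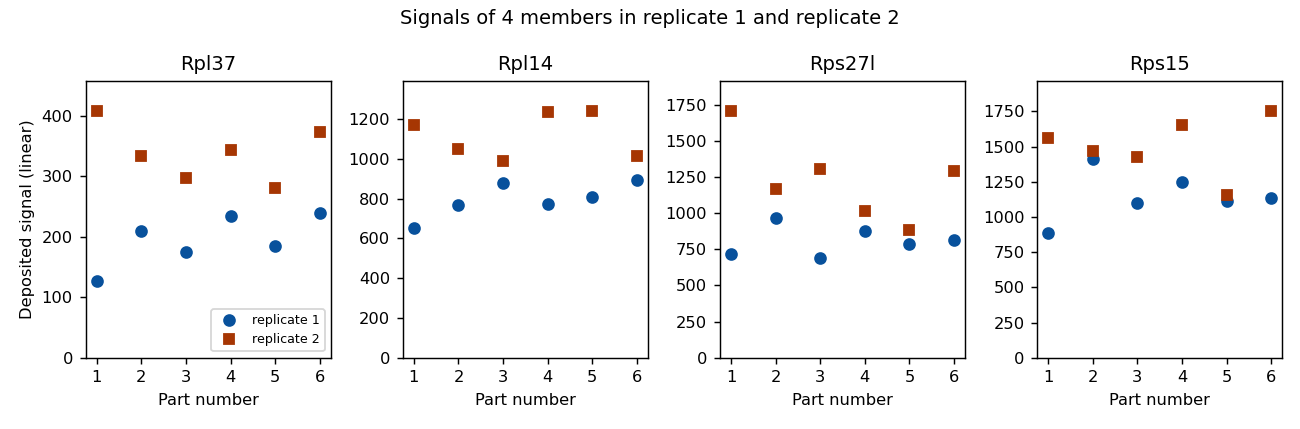
Deposited signal (y axes, linear, from 0) of Rpl37, Rpl14, Rps27l and Rps15 by part number (x axes), with circles for replicate 1 and squares for replicate 2. Replicate 2 is higher in all 6 parts in each panel; Rpl37 runs from 127 to 239 in replicate 1 and from 280.5 to 408 in replicate 2 without overlap, and Rpl14 from 653 to 891 and from 987 to 1241.

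Over all members the median of replicate 2 minus replicate 1 was 0.08 log2, with 34 of 47 above 0, against -0.04 for all genes. By part this median was 0.46 in part 1, where 41 of 47 members were higher in replicate 2, then -0.01, -0.22, 0.03, 0.01 and 0.11 in parts 2 to 6. The Cre controls differed by 0.39 in part 1 and by -0.17 in part 3. With the arrays centred on these controls the member median was 0.00363, and without both arrays of part 1 it was -0.00719. Slopes in the 2 replicates were also compared: no member and no gene was called for a different slope, and no member had an unadjusted p under 0.05 where 6.60% of all genes did (limma interaction).

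Members with several probe sets allowed a second look, since 23 of 50 had more than 1. Every kept probe set was tested on its own, 98 of them from members among 21679, an alternative chosen after the data were seen. By slope 8.93% of all probe sets were called and 2 of the members', one for Rpl22 and one for Rpl7. By part 6 against part 1, 6.31% were called and the same 2 of the members'. By replicate 3.72% were called and 4 of the members', for Rpl37, Rpl7l1, Rps18 and Rps20.

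The Rpl22 probe set 1416603_at was 2575 and 2731 in part 1, 2310.2 and 1997 in part 2, 1812 and 1792 in part 3, 1820.5 and 1883 in part 4, 2393 and 1944 in part 5, and 1329 and 1289 in part 6. Both arrays of part 6 were the lowest of the 12 and both of part 1 the highest. The log2 difference of part 6 minus part 1 was -1.02 ± 0.171 (limma adjusted p = 0.00798), and the slope was -0.144 ± 0.039 (adjusted p = 0.036). In 13 two-sided exact permutation tests, each called probe set that was not its gene's brightest was set against the gene's other kept probe sets; as the calls chose these probe sets, the tests are no independent evidence. The slope of 1416603_at differed from that of 1448398_s_at (exact p = 0.00133, adjusted over the 13 tests 0.0173) and did not pass against the brightest Rpl22 probe set, 1453118_s_at (exact p = 0.172). The slope call was lost when any array of part 1 or part 6, or replicate 1 of part 2 or part 4, was left out (adjusted p up to 0.125), and the end-to-end call without part 6 replicate 2 (adjusted p = 0.0693).

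The Rpl7 probe set 1426163_x_at was 1127 and 1238 in part 1, 876 and 850.3 in part 2, 829 and 885 in part 3, 857 and 977 in part 4, 747 and 791 in part 5, and 744 and 697 in part 6. All arrays of parts 2 to 6 lay below part 1, with a slope of -0.113 ± 0.0289 (limma adjusted p = 0.0262) and a part 6 minus part 1 difference of -0.71. The other Rpl7 probe sets, 1415979_x_at and 1426162_a_at, had slopes of -0.035 and -0.025. The exact permutation tests against them gave p = 0.0191 and 0.0115 (both 0.0406 after adjustment). The slope call was lost without any array of part 1 or part 6 and without part 5 replicate 1 (limma adjusted p up to 0.0804), and the end-to-end call in 7 of 15 alternatives (up to 0.2).

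The Rpl7l1 probe set 1439780_at separated the replicates most. It stood at 0.604 to 7.7 in replicate 1, below every array median, and at 105 to 170.0 in replicate 2, in all 6 parts. The difference was 3.85 ± 0.248 on the log2 scale (limma adjusted p = 0.000187). The other 2 Rpl7l1 probe sets, 1452049_at and 1426386_at, were 798 to 1136 and 411 to 585 over all arrays and differed by 0.07 and 0.02. The exact test of the difference against each gave p = 0.03125, the smallest that 6 parts allow (adjusted 0.0406). If the replicate number marks the embryo, these p-values too measure the spread among pieces.

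**Figure D4:**
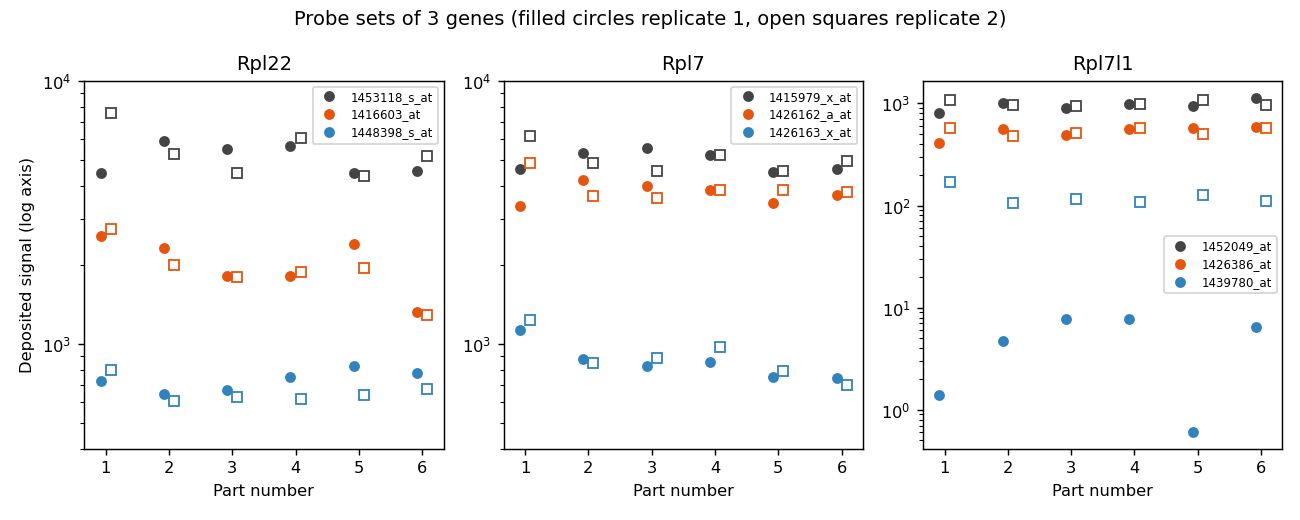
Deposited signal (y axes, log scale) of all 3 probe sets of Rpl22, Rpl7 and Rpl7l1 by part number (x axes); filled circles are replicate 1 and open squares replicate 2, and colours are probe sets. Probe set 1416603_at of Rpl22 is highest in part 1 (2575 and 2731) and lowest in part 6 (1329 and 1289), and 1439780_at of Rpl7l1 is at most 7.7 in replicate 1 and at least 105 in replicate 2.

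The type of probe set went with the sign of the slope. Among members measured by a probe set with the suffix _a_at (several transcripts of 1 gene) 16 of 17 slopes lay below 0, and with _x_at (some probes match other transcripts) 14 of 15, both of the 2 with _s_at, and 7 of 13 with the plain suffix _at. The median signals of these classes were 4629, 4924, 3815 and 379, so suffix and brightness cannot be told apart.

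Genes that make or regulate ribosomes were set beside the members, from lists compiled for this comparison, and their counts by slope stand beside the 12.7% of all genes called. Of 50 ribosome biogenesis genes, 7 had a slope below 0 and the median was 0.046, while the ribosomal proteins stood at -0.036 and all genes at -0.007. Ddx21, a nucleolar RNA helicase, was the only one called by slope (0.12, limma adjusted p = 0.00479). It rose from 543 ± 30.8 (SD, n = 2) in part 1 to 824 ± 24.9 in part 6. With the arrays centred on the hybridization controls the median was 0.0495 and no gene of the list was called, and under quantile normalization 3 were called higher with a median of 0.0476. Bysl (0.10), Rrp9 (0.09) and Gnl3 (0.07) were not called. The 35 tested translation factors and related messenger RNAs had no call and a median of -0.015, which was 0.00136 under quantile normalization, with the smallest slope p in Eif3k (-0.09) and Hnrnpa1 (0.08).

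Of 28 Myc and mTOR regulators, 1 was called higher and 2 lower along the parts. Mycn, a Myc family factor that drives ribosome synthesis, was 1159 and 848 in part 1 and 2546 and 2157 in part 6, a slope of 0.24 (limma adjusted p = 0.00163). Mxd4, an antagonist of Myc, was 78.1 and 86.1 in part 1 and 34.0 and 21.2 in part 6, a slope of -0.26 (adjusted p = 0.00344). Ddit4, an inhibitor of mTOR signalling, had a slope of -0.26 (adjusted p = 0.00745).

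Of 10 tested p53 and ribosome stress genes, 1 was called higher and 2 lower. Cdkn1a, the cell cycle inhibitor p21, was 132 and 115 in part 1 and 14.1 and 10.8 in part 6, a slope of -0.69 (limma adjusted p = 2.17e-05). Trp53inp1 had a slope of -0.20 and Zmat3 one of 0.15, both called, while with the arrays centred on the hybridization controls no gene of the list was called higher. Of the 6 S6 kinase genes, Rps6ka5 was called lower (slope -0.30, adjusted p = 0.00536), with 113 and 98.5 in part 1 against 32.2 and 37.1 in part 6.

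None of the 76 mitochondrial ribosomal protein genes was called by slope in the limma fit, where their median was -0.008, and 1 was called lower under quantile normalization. By part 6 against part 1, Mrpl24 was called lower (-0.63 log2, adjusted p just under the threshold), where 9.09% of all genes were called. The ribosomal proteins outside the symbol rule that were on the array, Rpsa and Fau, had slopes of -0.065 and -0.007, neither called. Rpsa was 6924 and 8828 in part 1 and 6036 and 6216 in part 6, lower on both arrays of part 6.

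**Figure D5:**
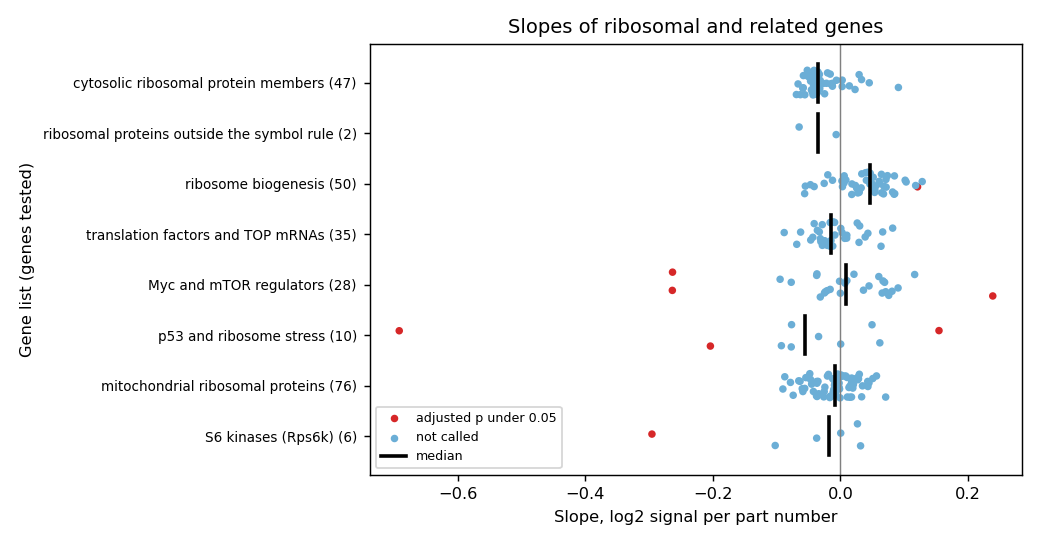
Change in log2 signal for each step in part number (x axis) for each tested gene (points) of the ribosomal protein members and 7 related lists (y axis, number tested in brackets); black bars are medians and red points have an adjusted p under 0.05. The member median is -0.036 and that of ribosome biogenesis 0.046, and the called genes lie outside the ribosomal protein lists.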

How the data were processed

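The deposited values are 1 linear array intensity per probe set and array, made by the authors with MAS5 per the submitters' processing notes, whose version and settings the sources used here do not give. Per the labels' protocols, RNA went through a double amplification and was labelled with biotin. The mean signal trimmed by 2% at each end was 100.0 on every array, so values are relative to a global scaling. Detection calls were not used, so low signals may be background. The number of arrays, 2 per part, limits the precision.

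The platform annotation gave 1 gene symbol for 34958 of 45101 probe sets, several for 932 and none for 9211, and 64 controls were left out of the tests. Rule symbols found only on probe sets with several genes (54, pseudogenes included, such as Rpl3, Rpl5, Rpl10, Rpl24, Rps12 and Rplp1) were not analysed here. Fits were made on log2(signal + 4.43), a scale that understates changes of dim genes; 4.43 is 0.25 times the overall median signal, 17.7. Fits used limma 3.58.1 in R 4.3.3 over all 12 arrays, with Benjamini-Hochberg adjustment at 0.05; adjusted p-values of genes and probe sets are from limma. The steps were tested on simulated data. Signals of different probe sets are not on a common scale of RNA amount.

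The members and lists were chosen with earlier results of these data known. Named were all called members, the 5 largest slopes in each direction, the 5 highest and 5 lowest mean signals, the 5 largest replicate differences, paralogue pairs, members with known phenotypes or further roles, matches that are no ribosomal protein, and up to 4 genes per other list by slope p. Other names were chosen after their values were seen. Same-numbered arrays deviated together from their part means across genes in 15 of 15 pairs of parts (correlation 0.183 to 0.335, median 0.234). With 2 embryos named in the design text, the number was read as marking the embryo, which the labels do not state. Under this reading, fits without the replicate block treat arrays of 1 embryo as independent. Alternatives were the offset, filter, array normalization, replicate block, variance trend, choice of probe set and leaving out arrays.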

Additional observations from a re-analysis of the deposited data

Results flagged for a closer look

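The probe sets that did not represent their gene in the main comparisons held 5 calls. Probe set 1416603_at of Rpl22 had a slope of -0.144 per part and 1426163_x_at of Rpl7 one of -0.113. These calls were lost in 6 and 5 of 15 alternatives, all by leaving out 1 array. Between replicates, 1439780_at of Rpl7l1 differed by 3.85 log2 and kept its call in all 15 alternatives, with adjusted p from 6.94e-07 to 0.00266. Probe set 1450390_x_at of Rps18 differed by 0.753, with signals of 17.9 to 28.7 in replicate 1 and 33.8 to 51.9 in replicate 2, and its call was lost in 8 of 15 alternatives, those without any 1 array of parts 1 to 4 (adjusted p up to 0.0883). Probe set 1450417_a_at of Rps20 differed by 1.07, with 10.7 to 37.9 in replicate 1 and 37.8 to 91.6 in replicate 2, and its call was lost in 9 of 15, with an offset of 1 and without any 1 array of parts 1, 3, 5 or 6 (adjusted p up to 0.107). Between replicates, leaving out either array of a part is the same fit, so these alternatives are not all separate. The brightest probe sets of Rps18 and Rps20, with mean signals of 7312 and 6851, differed by 0.03 and 0.11 between replicates and were not called. In exact tests the replicate difference of 1450390_x_at against the other 4 kept Rps18 probe sets gave p of 0.03125 for 3 and 0.0625 for 1, and that of 1450417_a_at against the other 3 of Rps20 gave 0.03125 for 2 and 0.09375 for 1 (adjusted 0.0406, 0.0739 and 0.102). Both probe sets were chosen by their call for this same difference, so the exact tests are no independent evidence.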

How the results depend on the processing

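The call of 1 member between replicates depended on the settings: the count of members higher in replicate 2 was 2 with an offset of 16 (where 3.04% of all genes were called by replicate in either direction), 0 with an offset of 1 (1.37%), 0 without a filter (0.627%), 3 with a filter at the 75th percentile (6.56%), 2 under the replicate block (the fit without the part as covariate, 1.84%), 4 with trended and robust variance (5.06%), 4 with every kept probe set tested (3.72%), 0 without both arrays of part 6 (0.96%) and 0 to 1 when 1 array was left out (0.935% to 1.33%). The count lower along the slope was 1 when probe sets without an _x, _s or _a suffix were taken first. Genes that had no such probe set kept a suffixed one. The count was 1 with the second brightest probe set (Rpl22 in both) and 2 with every kept probe set. That for part 6 against part 1 was likewise 1, 1 and 2. The median slope was -0.0107 under quantile normalization and -0.0569 to -0.0102 with 1 array left out. The median of part 6 minus part 1 was -0.0335 and -0.393 to 0.0576, the extremes without replicates 1 and 2 of part 1. The median replicate difference was 0.143 with arrays centred on the median, 0.00363 centred on the Cre controls, -0.00719 without both arrays of part 1 and -0.00719 to 0.108 with 1 array left out. The cause of these changes was not tested. The replicate block changed no slope, F, part 6 against part 1 or step call of a member (0 in each). No member was called higher by slope or by part 6 against part 1 in any alternative run. Testing every probe set and centring on the Cre controls were chosen after seeing the data. Part 6 against part 1 has no value without both arrays of either part.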
